A study of Mus musculus with 21 samples.

Results

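Intron retention events are the entries of the deposited alternative splicing table that its authors annotated as intron retention. In these a junction that runs into an intron is set against another junction, in most of them one that shares a splice site with it. They were 27548 of the 46443 events in the table (59.3%), in 5010 genes, against 7559 cassette exon events. Each event was turned so that its value, the percent spliced in (PSI) as a fraction from 0 to 1, reads as the retained share. The retained share is taken here as the share of junction reads that run into the intron. How PSI was computed is not given in the sources used here. Turning was possible for 26678 events, in which exactly 1 of the 2 junction labels names an intron. A further 827 events name an intron in both junctions and 43 in neither, and these were not analysed further. The 26678 events lie on 13201 introns of 4927 genes, counted by the spliced junction, and 15730 of them had a value in every library. In 21399 of the 26678 events the 2 junctions share a splice site. In the rest the value is not the share of a single intron retained against spliced out. A shared site does not make it so in all of the 21399 either. By their numbers, the Ptprc, Prkar2b and Cdk11b events below are set against a junction that passes over an exon. The Cdk6 event is set against a junction from a site outside the numbered exons. The events described below that are among that rest include those of 2410002F23Rik, Gm14306, Gm21811, Eif4a1, Luc7l, Luc7l2, Tardbp, Lmo2, Kit and Hspa8. The authors' deposited table lists no event with a spread of PSI over the libraries below 0.15, so levels given here describe introns already chosen for variation.

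The study profiled blood stem and progenitor cells of mouse bone marrow by bulk RNA-seq, in 21 libraries of 7 groups with 3 libraries each. LT-HSC are long-term haematopoietic stem cells and MPP are multipotent progenitors (MPP3/MPP4), both sorted from lineage-depleted marrow of pooled animals, and Rxra and Rxrb encode retinoid X receptors. Batch 1 holds LT-HSC and MPP of the genotypes Rxrabfl/fl (floxed controls without Cre) and VaviCre+Rxrabfl/fl (knockouts), 12 libraries in all. Batch 2 holds LT-HSC of Vav1Cre+WT (Cre controls without a floxed allele), Vav1Cre+Rxrabfl/fl (labelled knockouts) and Vav1Cre+Rxrabfl/fl Myclfl/+ (whose descriptions read Myc, called Myc allele libraries here), 9 libraries in all. Vav1-driven Cre acts in blood cells generally, and the control genotype changed with the batch, so batch and control cannot be told apart between the 2 LT-HSC knockout comparisons. The labels used here give no age, sex or strain, and do not say which exons are floxed.

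Introns are removed by the spliceosome, which pairs a 5′ splice site, beginning with GU in the RNA, with a 3′ splice site that ends in AG. An intron that stays in a transcript can hold it in the nucleus, as for the detained introns of many splicing factor genes, or carry a stop codon into it and expose it to nonsense-mediated decay. Intron retention is well known in blood cells for its rise in maturing granulocytes. A retained share counts reads across the exon-intron boundary of any RNA, mature or nascent.

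A few introns can be shown in full because a microRNA hairpin in RefSeq (build GRCm38.p6) runs from one splice site to the other, and their letters show what a retained read would cross. Of 23 introns in which a hairpin touched a splice site, the hairpin filled 3 completely, and these began with GU and ended with AG. The 3 introns and the 3′ part of an Srebf1 intron are printed 5′ to 3′, with the splice-site dinucleotides in capitals. They are Lat intron 7 (chr7:126367971-126368045, minus strand), Fbrs intron 9 (chr7:127489251-127489387, plus strand), Cherp intron 6 (chr8:72470016-72470089, minus strand) and, for Srebf1 intron 16, the hairpin at chr11:60200538-60200617 (minus strand) in an intron of 97 bases.
Lat intron 7, Mir7058: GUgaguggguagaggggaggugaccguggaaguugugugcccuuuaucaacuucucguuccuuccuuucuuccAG
Fbrs intron 9, Mir7060: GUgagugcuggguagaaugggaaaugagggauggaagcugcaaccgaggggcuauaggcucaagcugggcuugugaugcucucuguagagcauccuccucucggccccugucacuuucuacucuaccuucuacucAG
Cherp intron 6, Mir7068: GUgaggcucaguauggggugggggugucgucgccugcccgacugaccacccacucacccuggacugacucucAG
Srebf1 intron 16, Mir6921: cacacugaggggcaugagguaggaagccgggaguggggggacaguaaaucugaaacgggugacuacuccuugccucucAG

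These short introns held different retained shares. The Fbrs intron, in the fibrosin gene, had a median of 0.155 at its 5′ end and 0.128 at its 3′ end over the libraries. At the 3′ end of the Cherp intron, in a gene of a splicing-associated protein, the median was 0.063 and the highest value 0.370. Lat encodes an adaptor of T cell receptor signalling; the 3′ end of its intron was at 0 in all floxed control LT-HSC and at 0, 0.319 and 0.352 in the knockout LT-HSC, so the 2 groups overlapped at 0. In Srebf1, a regulator of lipid synthesis genes, the 3′ end was at 0, 0 and 0.133 in the floxed control LT-HSC and at 0.26, 0.391 and 0.384 in the knockout LT-HSC, with no overlap; neither the Lat nor the Srebf1 event passed the test across all events.

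For 43 introns the 5′ splice site fell within the RefSeq promoter windows (250 bases before to 50 after a gene start), so that the bases around it could be read from the same build. All 43 began with GT in the DNA. The first 6 intron bases were GTGAGT in 10 introns, GTAAGT in 4 and neither in 29. The splice sites of 4 first introns are printed with the last 10 exon bases in lower case and the first 6 intron bases in capitals, followed by 4 more: 3 with a high retained share and that of Rchy1, a ubiquitin ligase gene described further on. They lie at chr17:34628108-34628127 (minus strand), chr8:56550535-56550554 (minus strand), chr19:8871576-8871595 (plus strand) and chr5:91962620-91962639 (minus strand).
Ppt2 intron 1: aaatcctgtgGTGAGTcctt
Cep44 intron 1: gaatgatcagGTCTACcttt
Ubxn1 intron 1: ctcccgccccGTGAGTtagc
Rchy1 intron 1: tctcctcaagGTGACGactt

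The median retained share at these sites was 0.693 for Ppt2 over 16 libraries with a value, 0.761 for Cep44 over 14, 0.402 for Ubxn1 over 20 and 0 for Rchy1. Ppt2 and Ubxn1 share the bases GTGAGT, and the highest median of the 4 stood at the Cep44 site, which does not hold them.

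Several features of the libraries bear on every value. No intron retention event lay in Rxra, Rxrb, Rxrg, Myc, Mycl or Mycn, so the labels were checked on the inclusion of Rxra exon 8. It was 0.846 to 1 in the controls with a value and 0 in the 2 batch 1 knockout libraries with one. In labelled knockout libraries 5 and 6 it was 0.978 and 1, and labelled knockout library 4 had no value. Myc allele libraries 1, 2 and 3 had 0.185, 1 and 0. The batch 2 knockouts are therefore called the libraries labelled knockout. Oriented events without a value made up 1.97 to 4.00% in batch 1 and 3.41 to 25.8% in batch 2, highest in Myc allele library 2. Genes at 1 TPM (a transcript abundance scaled for length and library size) or more numbered 12455 to 14870 in batch 1 and 12435 to 12975 in batch 2. Summed over 10 LT-HSC marker genes, the level was 436 to 1070 TPM in LT-HSC and 179 to 247 TPM in MPP, and 6 MPP markers summed to 1095 to 1970 TPM in MPP and 30.9 to 136 TPM in LT-HSC. Markers of other cells moved with the groups: 6 neutrophil markers summed to 119 to 1275 TPM in the knockout LT-HSC and 33.0 to 56.1 TPM in their floxed controls. In both of these groups 0 of the 6 were at 0 in all libraries. In bulk samples, fewer cells of a type and less RNA per cell cannot be told apart. The p-values below measure the spread between libraries of pooled animals.

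The retained share of whole libraries overlapped between the batches. Averaged over the 15730 events with a value in every library, it was 0.103, 0.111 and 0.133 in the floxed control LT-HSC and 0.132, 0.168 and 0.174 in the knockout LT-HSC, which overlapped. The floxed control MPP had 0.176, 0.175 and 0.134 and the knockout MPP 0.119, 0.159 and 0.155, with overlap again. In batch 2 the Cre controls had 0.0425, 0.0452 and 0.0531 and the labelled knockouts 0.0965, 0.0956 and 0.0562. The Myc allele libraries had 0.0438, 0.139 and 0.143, of which the last 2 lay above every floxed control LT-HSC library. All Cre controls, all labelled knockouts and Myc allele library 1 lay below every batch 1 library. As means ± SD (n = 3) these were 0.116 ± 0.0158 and 0.158 ± 0.0226 for floxed control and knockout LT-HSC, 0.162 ± 0.0239 and 0.144 ± 0.0218 for MPP, and 0.0470 ± 0.00548, 0.0828 ± 0.0230 and 0.108 ± 0.0560 for the Cre control, labelled knockout and Myc allele groups.

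The median event did not overlap between the batches, since it was 0 in all 9 batch 2 libraries and between 0.0447 and 0.149 in batch 1. Events at exactly 0 made up 24.4 to 44.6% of a batch 1 library and 54.9 to 73.3% of a batch 2 library. Within batch 1, the floxed control LT-HSC had 36.5 to 44.6% at 0 and the knockout LT-HSC 30.7 to 32.2%, without overlap. The knockout LT-HSC libraries also had more genes at 1 TPM or more, 13923, 14774 and 14870 against 13182, 12455 and 13249, so retained share and the number of genes seen moved together; the part of either in the other was not tested. The share of events at 0.5 or more was 3.11 to 6.37% in batch 1. In batch 2 it was as low as 1.51%, and Myc allele libraries 2 and 3 lay above every batch 1 library, the latter with 8.90%.

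**Figure D1:**
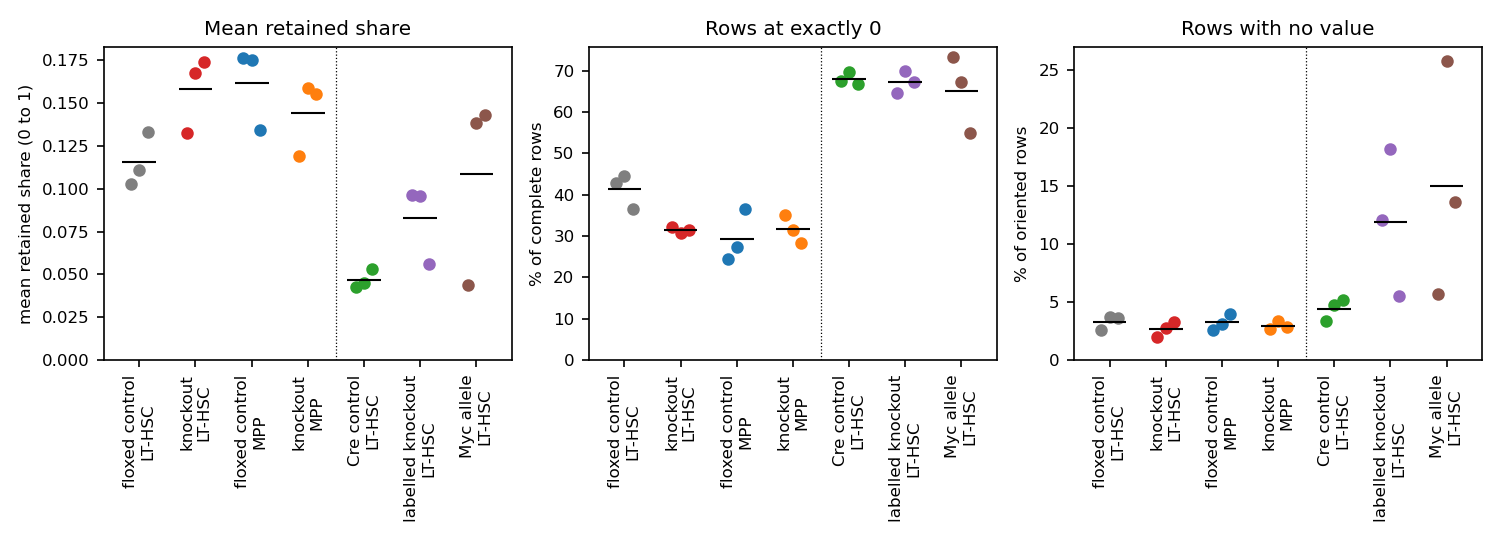
Mean retained share, percent of intron retention events at exactly 0, and percent of oriented events with no value, for each of the 21 libraries by group (points; bars are group means, the dotted line parts the batches). The 3 Cre control libraries, at 0.0425 to 0.0531, and the 3 labelled knockouts, at 0.0562 to 0.0965, have means below every batch 1 library. So does Myc allele library 1, at 0.0438. All batch 2 libraries have more events at 0 than any batch 1 library.

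Most introns in the table were seen spliced in most libraries, and a small set was retained throughout. The median over the libraries was 0 for 7829 of the 15730 events (49.8%), above 0 but under 0.1 for 3441 (21.9%), 0.1 to under 0.5 for 4039 (25.7%) and 0.5 or more for 421 (2.68%). Only 77 events (0.490%) stayed at 0.5 or more in every library and 367 (2.33%) at 0.1 or more. In contrast, 3925 events were at 0 in at least 1 library and at 0.5 or more in another. Of the 330330 values behind these counts, 47.7% were exactly 0, and the smallest value above 0 in an event was typically 0.0659 (median over events). The read counts behind a value are not in the table, so the depth per event is unknown and a 0 sets no upper limit.

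Among the genes with the highest median retained share were a kinase subunit, a zinc finger gene and unnamed loci. Eif4a1 intron 4, in the gene of an RNA helicase of translation initiation, was at 1 in all libraries but Cre control 5, with 0.531, and labelled knockout 5, with 0.376. Others were 2410002F23Rik (0.746 to 1), Gm13306 (0.730 to 1) and Gm14306 (0.697 to 1) with medians of 1, Psd4 with 0.990, H2-Q5, Zfp644 with 0.978, Gm21811 with 0.975 and Prkar2b, a regulatory subunit of protein kinase A, with 0.973. H2-Q5, a class I histocompatibility gene whose near-identical relatives can share its reads, lay between 0.960 and 0.997 in batch 1 and between 0.783 and 0.928 in batch 2, without overlap.

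Some of the 77 events at 0.5 or more in every library lay in genes of RNA processing, and the following were chosen after their values were seen. Malat1, a nuclear long non-coding RNA, had a median of 0.958 (0.822 to 0.997). Luc7l intron 2 stood at 0.933 (0.698 to 0.986) and Luc7l2 at 0.891 (0.731 to 0.984), both in genes of components that act at the 5′ splice site. Tardbp intron 8, in the gene of an RNA-binding protein, had 0.885 (0.759 to 0.942), Prpf4b, a spliceosomal kinase, 0.881 (0.545 to 1), Tra2a, a splicing activator, 0.867 (0.549 to 1), and Ccnl2, a cyclin of splicing speckles, 0.801 (0.645 to 0.943). Hnrpdl, an hnRNP gene that regulates its own splicing, had 0.720 (0.535 to 0.796).

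Gene lists showed how these levels spread over pathways. Against a median of 0.00655 and 2.68% at 0.5 or more over all 15730 events, the 168 events in 21 genes of SR proteins and their kinases had a median of 0.122 with 8.93% at 0.5 or more, and the 111 events in 20 hnRNP genes 0.0956 with 7.21%. The 175 events in genes with known detained or poison introns had a median of 0.102 with 8.57% at 0.5 or more, and the 187 events in core spliceosome genes 0.0774 with 3.21%. Lower medians included those of the interferon and antigen presentation list, 0.00722 over 42 events, the nonsense-mediated decay list, 0.0235 over 140, and the lysosome and autophagy list, 0 over 94. Batch 2 was lower than batch 1 in the mean of every list, for example 0.150 against 0.212 for SR proteins and 0.0530 against 0.134 for nonsense-mediated decay, as it was over all events (0.0794 against 0.145).

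Stem cell regulators and nuclear receptors held events of middle level. The 47 events in 13 stem cell genes had a median of 0.0638 and none reached a median of 0.5. Within this list the highest medians were 0.449 (0.144 to 0.661) for Lyl1 and 0.300 (0.022 to 0.631) for Lmo2, both transcription regulators, and 0.298 (0.144 to 0.446) for Kit, the stem cell factor receptor. The 43 events in 8 genes of retinoid metabolism and nuclear receptors had a median of 0.0625, led by Nr4a2 with 0.613 (0.239 to 0.902), an orphan receptor. The granulocyte list, of genes known for intron retention in maturing neutrophils, had a median of 0.0281 over 38 events, with Ptprc, the pan-leukocyte phosphatase, highest at 0.506 (0.246 to 0.623).

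The position of an intron in its gene, as numbered in the table, went with its level. Counting each junction pair once and using pairs that share a splice site, mean retained share was 0.157 in batch 1 and 0.0983 in batch 2 for first introns, 0.157 and 0.0975 for second introns, 0.127 and 0.0708 for introns 3 to 10, and 0.120 and 0.0578 from intron 11 on. The share with a median of 0.5 or more was 4.13% of 315 first introns, 4.04% of 545 second introns, 1.52% of 4199 and 1.10% of 3810. By intron length, taken from the spliced junction, the batch 1 mean ran from 0.115 to 0.132. The batch 2 mean ran from 0.0814 in the class with a median length of 137 bases down to 0.0480 in the longest class (median 9026 bases). The 5′ and 3′ ends of introns had batch 1 means of 0.126 and 0.128.

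Each intron has 2 ends, and the table measures some at both, which checks one measurement against another of the same molecule. For 2073 introns with complete values at both ends, the median retained shares of the ends correlated across introns (Pearson's r 0.718, a description, since the ends share libraries and reads of the same gene), and within single libraries r lay between 0.663 and 0.888. An intron at 0 at one end and at 0.2 or more at the other made up 0.338 to 2.80% of introns by library. The table also lists 7595 junction pairs in both orders, with either junction as the one examined. The 2 retained shares of such a pair lay within 0.001 of each other in 43.4% of 150291 values and more than 0.1 apart in 26.5%, with a median gap of 0.0385, so a single value carries that much uncertainty from how the event was set up.

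**Figure D2:**
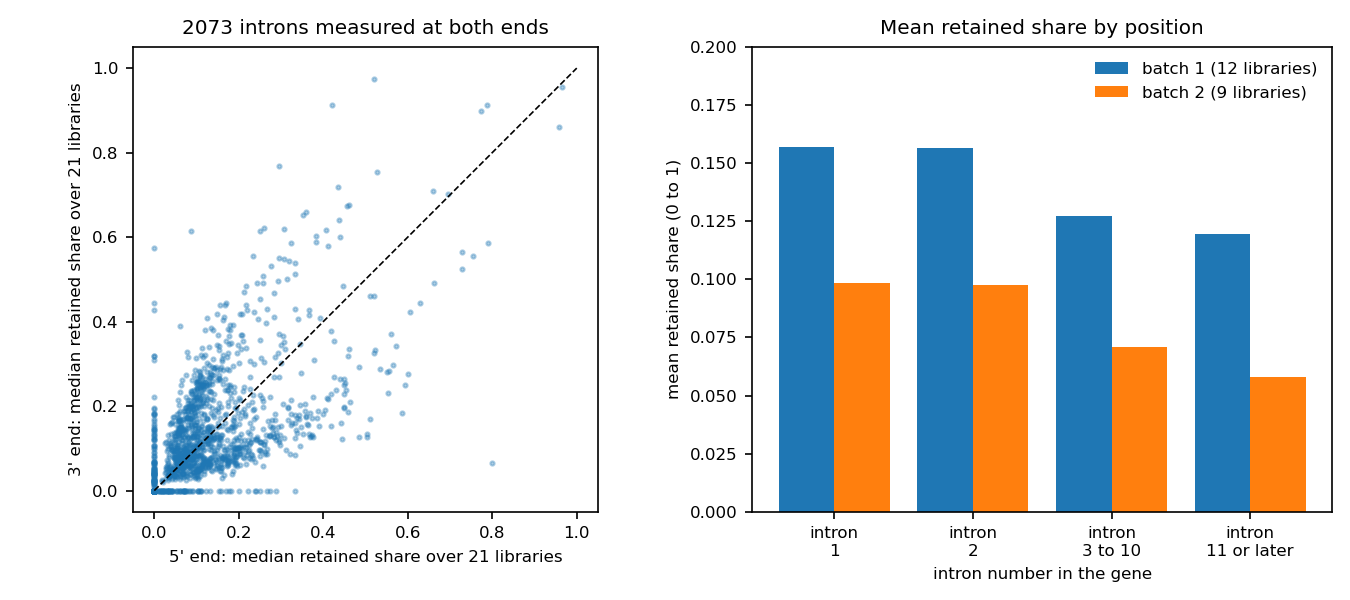
Left, median retained share over the libraries at the 5′ end against the 3′ end, 1 point per intron for 2073 introns. Right, mean retained share by the intron's number in its gene, with bars for batch 1 and batch 2; first and second introns stand highest, at 0.157 in batch 1.

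The knockout was compared with the floxed control in LT-HSC within batch 1, to ask which introns change with loss of the receptors. The test was limma on PSI, fitted across all event types with complete values, and an event was called where its Benjamini-Hochberg adjusted p was under 0.05 and its groups differed by 0.1 or more. Of 23151 intron retention events tested, 41 were called higher and 3 lower in the knockout, in 29 and 3 genes. Over all 39312 events of every type tested, 0.127% were called, 0.112% higher and 0.0153% lower, as the event is listed; besides intron retention, 4 of 15434 other events were called. The 44 differences ranged from 0.199 to 0.665 in size (median 0.343), and in 33 of them the lower group was at 0 in all 3 libraries. The median difference over all events tested was 0.0390, with 64.3% of events higher and 29.8% lower in the knockout. Subtracting each library's median left 9 higher and 4 lower, and subtracting its mean 11 higher and 1 lower. The count rested on single libraries: it was 10 without floxed control LT-HSC 2, 9 without floxed control LT-HSC 3, 27 without knockout LT-HSC 2 and 312 without knockout LT-HSC 1.

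Among the introns that rose, that of Mknk1 changed most. Mknk1, a kinase that phosphorylates the cap-binding initiation factor, stood at 0 in all 3 floxed controls and at 0.643, 0.615 and 0.738 in the knockouts at intron 8 (spliced junction chr4:115864613-115866461). It was at 0 in all 6 MPP libraries as well. The difference was 0.665 (SE 0.036, limma adjusted p = 8.77e-05). Myo1f, a class I myosin of blood cells, was at 0 in the floxed controls and at 0.4, 0.386 and 0.463 in the knockouts at the 3′ end of intron 23 (chr17:33601806-33601941, 136 bases). Both of its ends were called, and at this end the difference was 0.416 (SE 0.0361, limma adjusted p = 0.00258). Mknk1 and Myo1f were the 2 of 13 named events that kept the call under every alternative. Kcnab2, a potassium channel subunit, moved from 0 in all 3 controls to 0.333, 0.564 and 0.483 (limma adjusted p = 0.0219).

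Further introns rose from low levels in the LT-HSC knockouts. Dip2b intron 16 (3′ end, chr15:100171214-100171602) was at 0 in the floxed controls and at 0.645, 0.554 and 0.789 in the knockouts, a difference of 0.663 (SE 0.0747, limma adjusted p = 0.0174), and both ends were called. Its MPP libraries lay between 0.396 and 0.654 with or without the knockout. Zfyve21 intron 7, in the gene of a FYVE domain protein of endosomes, had 0.146, 0 and 0 against 0.7, 0.571 and 0.629 (adjusted p = 0.0482 by limma). Ube2m intron 4, in the gene of the enzyme that conjugates NEDD8, had 0 in the controls against 0.345, 0.403 and 0.473 (limma adjusted p = 0.0191). Rnf220, a ubiquitin ligase gene, moved from 0 to 0.476, 0.674 and 0.647 (limma adjusted p = 0.0351). Ascc2, a subunit of a transcriptional coactivator and RNA repair complex, had 0.322, 0 and 0 against 0.734, 0.653 and 0.66. The zinc finger gene Zfp704 (0.0141, 0 and 0.0517 against 0.469, 0.484 and 0.517) and Gmcl1 (0.0625, 0.0476 and 0.107 against 0.384, 0.559 and 0.571) completed the 10 largest rises.

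The 3 introns that fell were in a transcription factor, a chaperone and a RING finger gene. Nfkb2 encodes the precursor of the non-canonical NF-kappa-B subunit; its intron 7 (5′ end, chr19:46307719-46307955) had 0.46, 0.43 and 0.512 in the floxed controls and 0 in all 3 knockouts, a difference of -0.467 (SE 0.0701, limma adjusted p = 0.04). In MPP the same intron was at 0.828, 0.776 and 0.7 in floxed controls and at 0.778, 0.45 and 0.63 in knockouts. Lonrf3 intron 8 had 0.459, 0.742 and 0.846 against 0.04, 0.167 and 0.136 (limma adjusted p = 0.0442). Dnajb11, a chaperone of the endoplasmic reticulum, had 0.272, 0.352 and 0.261 at intron 6 against 0 in each knockout (limma adjusted p = 0.0263). Beside these changes stand the neutrophil markers given above and 6 B cell markers, which summed to 364 to 890 TPM in the knockout and 9.93 to 216 TPM in the floxed control LT-HSC. Monocyte markers, at 39.7 to 68.6 against 13.5 to 20.8 TPM, did not overlap either. The same held for mast cell, basophil and eosinophil markers, at 18.2 to 46.9 against 3.71 to 7.15 TPM. Markers of LT-HSC themselves were also higher without overlap, at 900 to 1070 against 444 to 839 TPM. So were those of MPP, of T and NK cells and of endothelial and stromal cells. Erythroid markers overlapped, at 44.8 to 109 against 81.9 to 273 TPM. The part of any of these in the changes was not tested.

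In MPP the same comparison gave more falls than rises. Of 23151 intron retention events, 12 were called higher and 34 lower in the knockout, in 8 and 26 genes, where 0.127% of all 39312 events were called, 0.0305% higher and 0.0967% lower. Only 1 of 15434 other events was called. The 46 differences had sizes of 0.202 to 0.776 (median 0.337), and in 40 of them the lower group was at 0 in each library. The median difference over all events tested was -0.0102, with 42.0% higher in the knockout. Subtracting each library's median gave 10 higher and 15 lower, and subtracting its mean 10 higher and 16 lower. The count was 144 without floxed control MPP 3, 104 (58 higher, 46 lower) without knockout MPP 1 and 23 without knockout MPP 2. Summed B cell markers were 2155 to 11705 TPM in the floxed control and 684 to 6022 TPM in the knockout MPP, which overlap. Neutrophil markers, at 12.5 to 36.5 and 69.3 to 557 TPM, did not overlap, nor did monocyte markers, at 74.1 to 99.4 and 116 to 181 TPM. Their part was not tested.

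Some introns that rose in knockout MPP were at 0 in LT-HSC. Cmpk2, a mitochondrial nucleotide kinase gene induced by interferon, stood at 0, 0.0317 and 0.0962 in the floxed control MPP and at 0.425, 0.566 and 0.463 in the knockouts at the 5′ end of intron 1 (chr12:26470027-26471405). It was at 0 in all 15 LT-HSC libraries, and the difference was 0.442 (SE 0.0418, limma adjusted p = 0.00435). Slc4a7, a bicarbonate cotransporter gene, was at 0.318, 0.372 and 0.314 in the knockout MPP at intron 18 (chr14:14771315-14772535) and at 0 in each of the other 18 libraries. Its difference was 0.335 (SE 0.03, limma adjusted p = 0.00435). Iffo1, an intermediate filament family gene, had 0.393, 0.314 and 0.3 in the knockout MPP and 0 in the other batch 1 libraries. Ehmt2, a histone methyltransferase gene, had 0.207, 0.313 and 0.345 at intron 19 and was at 0 in the other 18 libraries (limma adjusted p = 0.0207).

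For Ppp1r12c, LT-HSC of both genotypes were retained too. Ppp1r12c, a myosin phosphatase subunit gene, was at 0 in the 3 floxed control MPP and at 0.488, 0.442 and 0.388 in the knockouts (intron 7, chr7:4485085-4485188, 104 bases, difference 0.439, SE 0.0651, limma adjusted p = 0.0356). Its floxed control LT-HSC had 0.603, 0.339 and 0.593 and its knockout LT-HSC 0.415, 0.452 and 0.356. Adcy6, an adenylate cyclase gene, had 0 against 0.25, 0.343 and 0.268, Gstz1, an enzyme of tyrosine breakdown, 0, 0.0375 and 0.132 against 0.286, 0.325 and 0.366, and Sppl3, an intramembrane protease gene, 0 against 0.197, 0.27 and 0.207. In batch 1 LT-HSC the Sppl3 event was at 0 and the Gstz1 event at 0.0526 or less, while Adcy6 had 0.0787, 0.0556 and 0.0968 in floxed controls and 0.287, 0.421 and 0.364 in knockouts.

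The largest falls among the named introns of knockout MPP were in Ahnak, Nfkb2 and Ulk1. Ahnak, a gene of a giant scaffold protein, had 0.519, 0.789 and 0.657 in the floxed controls and 0 in the knockouts at intron 3 (chr19:8999773-9000099, 327 bases). The difference was -0.655 (SE 0.0791, limma adjusted p = 0.0152), with both ends called. Ulk1, the kinase that starts autophagy, had 0.784, 0.69 and 0.407 against 0 at intron 19 (chr5:110789536-110790211, difference -0.627, SE 0.0955, limma adjusted p = 0.0422). Per2, a circadian repressor gene, had 0.528, 0.522 and 0.561 against 0 at intron 11 (limma adjusted p = 0.0146). Another intron of Nfkb2, number 17, had 0.745, 0.652 and 0.681 against 0, 0.125 and 0 (limma adjusted p = 0.0403), where intron 7 stayed at 0.45 to 0.828 in both groups.

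One of the falls was in an intron retained in the floxed control MPP alone. Ifih1, a cytoplasmic sensor of viral RNA, had 0.394, 0.435 and 0.32 in the floxed control MPP at intron 11 (chr2:62605701-62606180) and 0 in the other 18 libraries, a difference of -0.383 (SE 0.0346, limma adjusted p = 0.00435). Arnt, the partner of hypoxia-inducible factors, had 0.471, 0.538 and 0.417 against 0 at intron 6, while its knockout LT-HSC kept 0.343, 0.333 and 0.355 (limma adjusted p = 0.0217 in MPP). Kdm5c, a histone demethylase gene on the X chromosome, had 0.462, 0.435 and 0.406 against 0 (limma adjusted p = 0.027). Pi4k2b (0.453, 0.473 and 0.524 against 0), the kinase gene Prkd2 (0.33, 0.463 and 0.564 against 0) and the kinase gene Cdk18 (0.375, 0.355 and 0.545 against 0.132, 0 and 0) were the others. Cmpk2, Iffo1, Slc4a7 and Ifih1 were the 4 of 18 named events called under each alternative.

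**Figure D3:**
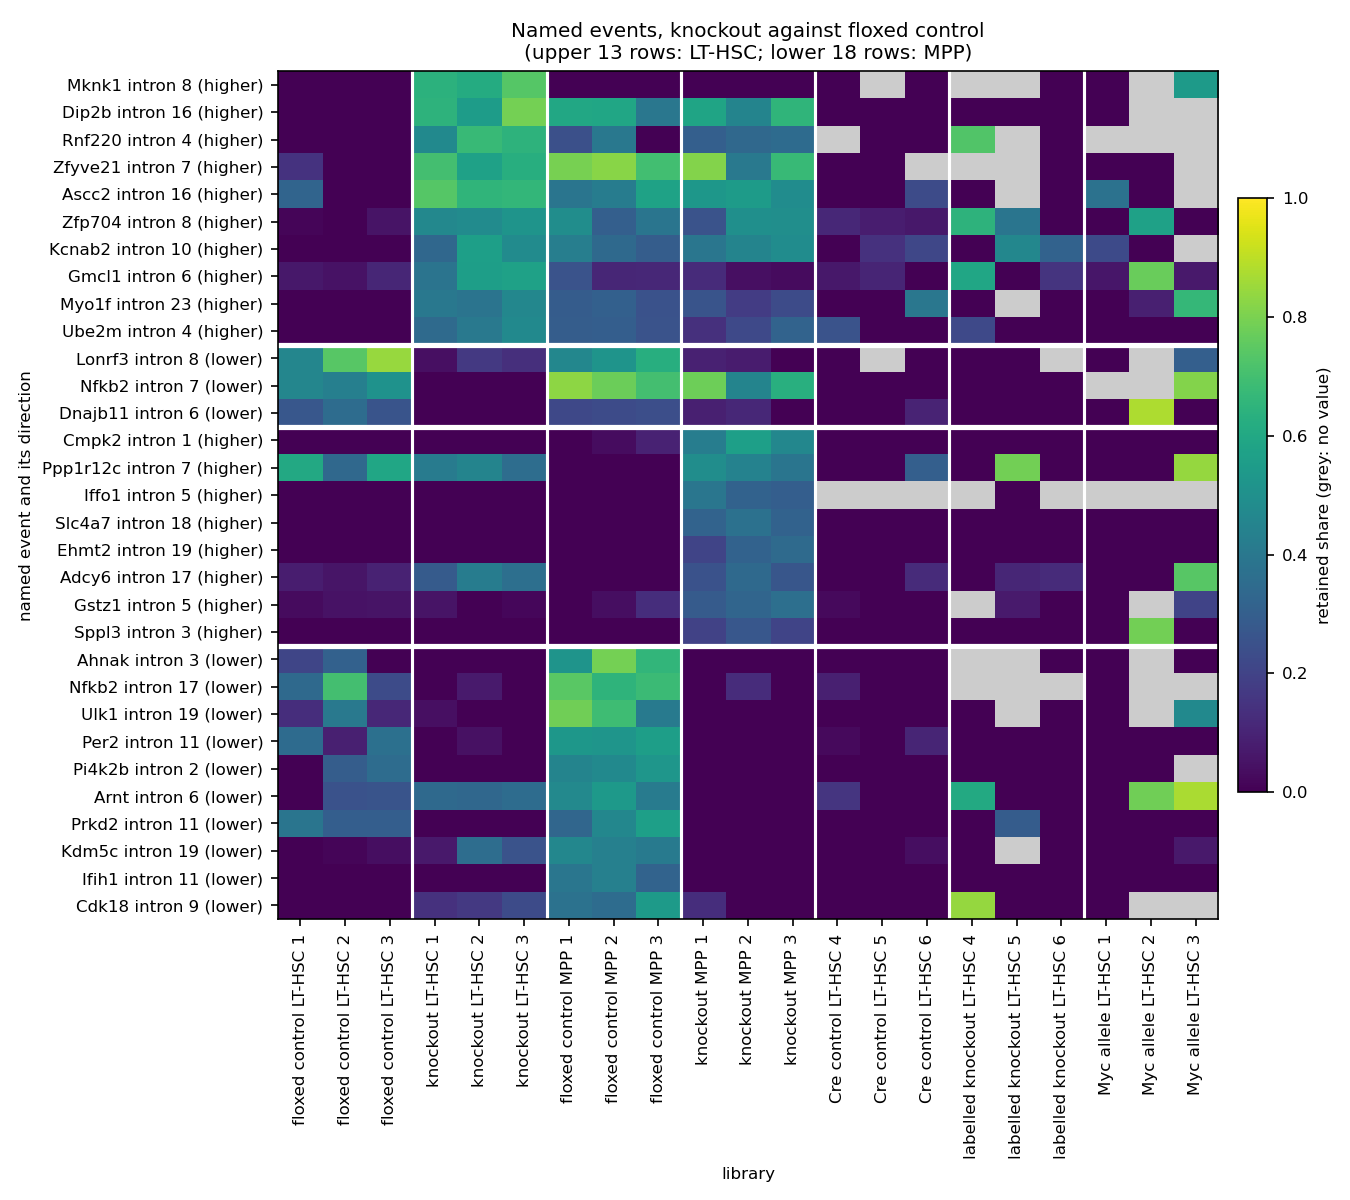
Retained share of the named intron retention events of the LT-HSC (upper 13) and MPP (lower 18) knockout comparisons in each of the 21 libraries, as a colour scale from 0 to 1 with grey for no value. The upper block changes between the first 2 LT-HSC groups, by 0.665 for Mknk1, and the lower block between the 2 MPP groups.

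Between cell types, MPP were compared with LT-HSC of the same genotype, first in the floxed controls. Of 23151 events, 96 were called higher and 10 lower in MPP, in 66 and 6 genes, where 0.402% of all 39312 events were called, 0.313% higher and 0.089% lower, and 50 of 15434 other events. The 106 sizes ran from 0.167 to 0.722 (median 0.327), and in 66 the lower group was at 0 in all 3 libraries. The median difference was 0.0417, with 67.3% of events higher in MPP. Subtracting each library's median left 14 higher and 17 lower, and subtracting its mean 31 higher and 15 lower. LT-HSC and MPP libraries share source names in their descriptions, and with the source as a replicate block 1 event was called. Without floxed control LT-HSC 2 the count was 40 and without floxed control MPP 3 it was 216. B cell markers, 2155 to 11705 TPM in these MPP, summed to 9.93 to 216 TPM in the LT-HSC; their part was not tested.

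Tgfbr1, Tmbim6 and Cdk1 were among the genes with an intron more retained in floxed control MPP. Tgfbr1, a receptor kinase of TGF-beta, was at 0 in the floxed control LT-HSC and at 0.426, 0.5 and 0.544 in MPP at intron 9 (chr4:47402971-47403369), a difference of 0.490 (SE 0.0477, limma adjusted p = 0.00243), with both ends called. The knockouts had the same order, 0 in LT-HSC and 0.298, 0.478 and 0.414 in MPP (difference 0.397, limma adjusted p = 0.00838). Tmbim6, a membrane gene of cell death control, had 0 in LT-HSC and 0.463, 0.418 and 0.421 in MPP at intron 6 (limma adjusted p = 0.00221). Cdk1, the mitotic kinase, had 0 against 0.219, 0.18 and 0.228 at intron 4 (limma adjusted p = 0.0319) and was the one called event of the cell cycle list, out of 101.

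Zfyve21 and Dip2b, which rose in the knockout LT-HSC, were also higher in floxed control MPP than in LT-HSC, by 0.722 (SE 0.091, limma adjusted p = 0.0104) and 0.530 (limma adjusted p = 0.0182). These 2 comparisons share the floxed control LT-HSC libraries. Ahnak, Cdk18 and Kdm5c, which fell in the knockout MPP, were higher by 0.482, 0.425 and 0.417, and that pair of comparisons shares the floxed control MPP. Celf1, an RNA-binding regulator of splicing, had 0, 0.25 and 0.318 against 0.738, 0.714 and 0.7, and Ccdc84, a gene of minor intron splicing, 0.357, 0.333 and 0.333 against 0.75, 0.746 and 0.775 (limma adjusted p = 0.00835).

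The introns lower in floxed control MPP lay in 6 genes. Slc39a13, a zinc transporter gene, had 0.416, 0.528 and 0.459 in LT-HSC and 0 in MPP, a difference of -0.468 (SE 0.0453, limma adjusted p = 0.00243). Med12l, a Mediator kinase module gene, had 0.547, 0.374 and 0.396 against 0 at intron 27 (chr3:59247483-59247848, difference -0.439, SE 0.0438, limma adjusted p = 0.00268). Both stayed at 0 in the knockout MPP and at 0.28 to 0.444 (Slc39a13) and 0.295 to 0.32 (Med12l) in the knockout LT-HSC. Ppp1r12c was lower by 0.512 on the share scale in MPP (difference -0.512, limma adjusted p = 0.0106). Nlrc3, a negative regulator of innate signalling, had 0.526, 0.829 and 0.556 against 0.16, 0.113 and 0.161, Ggcx, the vitamin K-dependent carboxylase gene, 0.368, 0.436 and 0.41 against 0, and Baz2a, of a nucleolar remodelling complex, 0.303, 0.304 and 0.407 against 0.14, 0 and 0.

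In the knockouts the same cell type comparison was balanced. Of 23151 events, 27 were called higher and 27 lower in MPP, in 15 and 21 genes, against 0.244% of all 39312 events, 0.112% higher and 0.132% lower, and 41 of 15434 other events. The sizes ran from 0.177 to 0.718 (median 0.309), in 41 of 54 the lower group was at 0 in each library, and the median difference was -0.0100. After subtraction of library medians 28 were higher and 16 lower, and after subtraction of means 34 and 28. With the source as a replicate block, limma called 0 events, with 1997 at an unadjusted p under 0.05. Without knockout LT-HSC 1 the count was 177. Monocyte markers summed to 116 to 181 TPM in the MPP and 39.7 to 68.6 TPM in the LT-HSC, and B cell markers to 684 to 6022 and 364 to 890 TPM; their part was not tested.

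Named introns with a higher retained share in knockout MPP than in knockout LT-HSC included those of Topbp1, Il18bp and Jam3. Topbp1, a scaffold of the DNA damage checkpoint, was at 0 in the knockout LT-HSC and at 0.4, 0.388 and 0.461 in MPP at intron 1 (chr9:103305372-103306096), a difference of 0.416 (SE 0.0322, limma adjusted p = 0.00109). Il18bp, the secreted antagonist of interleukin-18, had 0.242, 0.256 and 0.325 against 0.732, 0.724 and 0.758 at intron 4 (chr7:102016402-102016749, difference 0.463, SE 0.0438, limma adjusted p = 0.0023). The floxed controls stood at 0.322 to 0.423 and 0.667 to 0.787 for Il18bp, so its order by cell type held there too, and batch 2 LT-HSC had 0.0471 to 0.424. Jam3, a junctional adhesion molecule gene, had 0.312, 0.542 and 0 against 1 in all 3 MPP at an intron of 78 bases (chr9:27098767-27098844, difference 0.715, SE 0.11, limma adjusted p = 0.0296). Nfkb2 intron 7 (difference 0.619), Cmpk2 (0.485), Tgfbr1, 1200011I18Rik (0.381), Iffo1 (0.336), Slc4a7 (0.335) and Dnajc6 (0.314) were the other named rises.

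Named introns with a higher retained share in the knockout LT-HSC included those of Itga5, Vps13d and Sigirr. Itga5, the fibronectin receptor subunit, was at 0.286, 0.386 and 0.354 in knockout LT-HSC at a 107-base intron 9 (chr15:103355970-103356076) and at 0 in the other 18 libraries. The MPP difference was -0.342 (SE 0.0332, limma adjusted p = 0.00257), with both ends called. Vps13d, a lipid transfer protein gene, had 0.367, 0.358 and 0.361 in the knockout LT-HSC at intron 28 (difference -0.362, SE 0.0277, limma adjusted p = 0.00109), and Sigirr, a negative regulator of interleukin-1 receptor signalling, 0.274, 0.4 and 0.452 at an intron of 102 bases (limma adjusted p = 0.00634). Both were at 0 in the knockout MPP. Mknk1 (-0.665), Gmcl1 (-0.440), Zc3h4 (-0.395), Slc39a13 (-0.354), Cpsf3l (-0.342), Ankrd16 (-0.340) and Cdip1 (-0.339) were the other named falls.

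**Figure D4:**
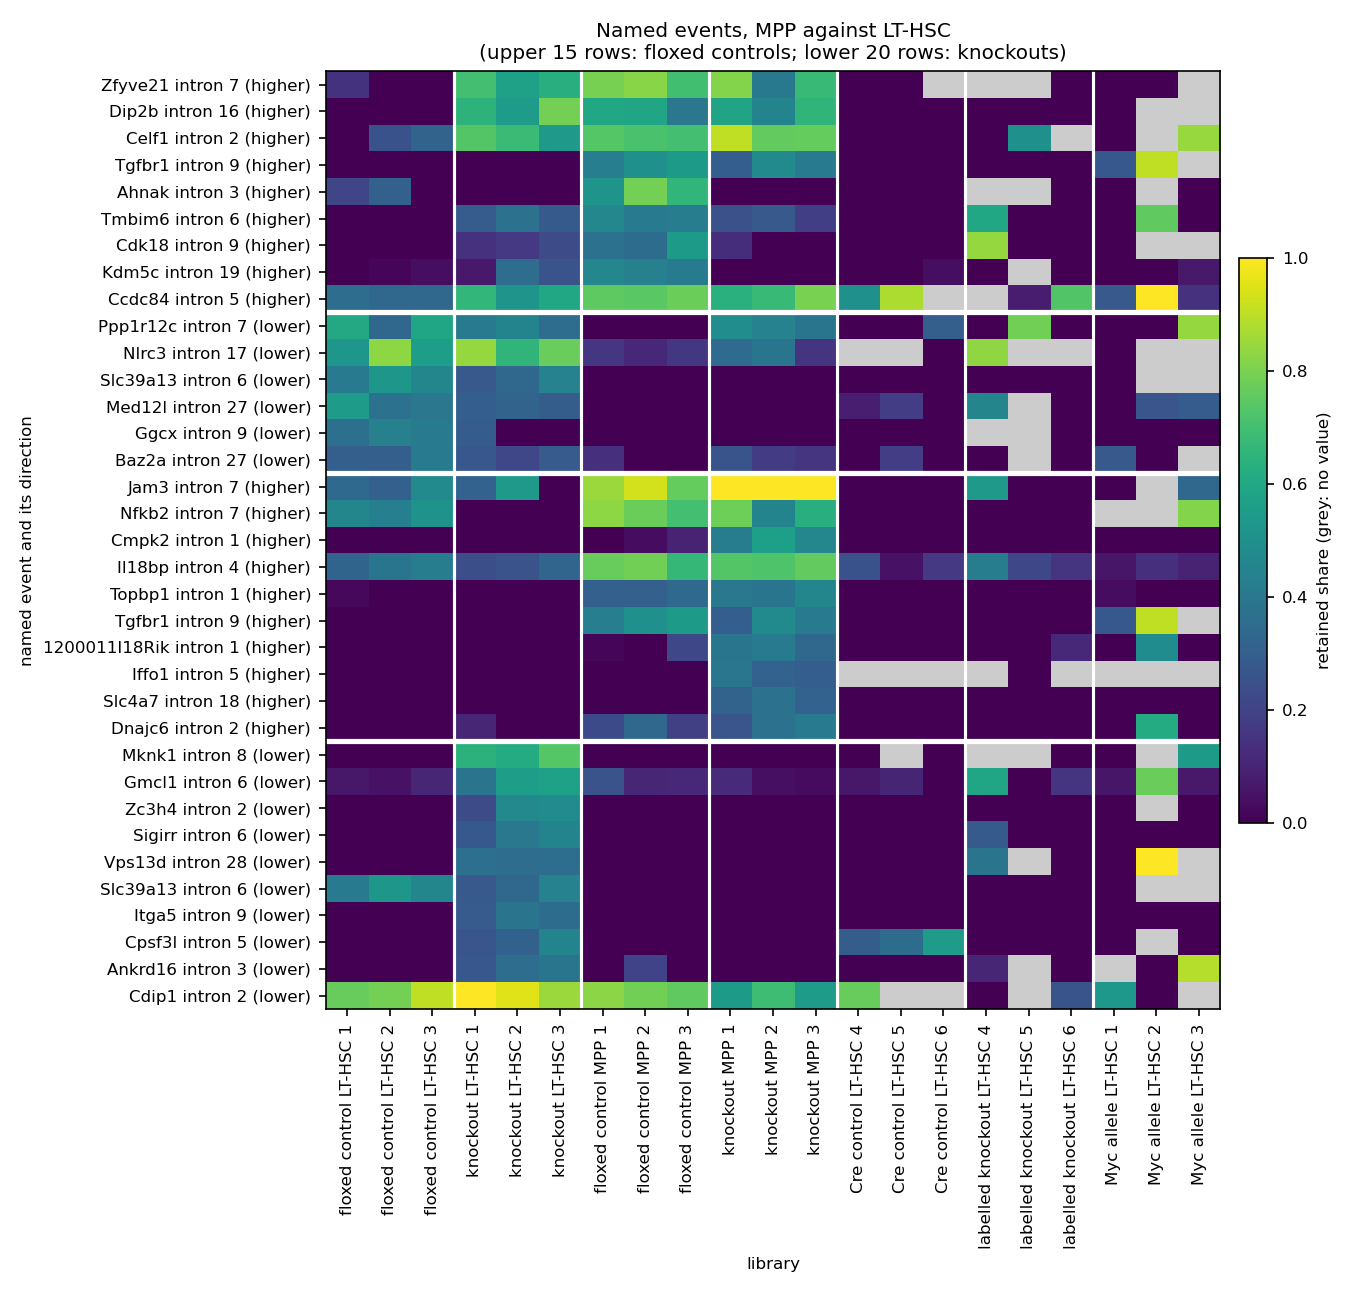
Retained share of the named intron retention events of the MPP against LT-HSC comparisons, floxed controls (upper 15) and knockouts (lower 20), in each of the 21 libraries, as a colour scale from 0 to 1 with grey for no value. Topbp1, Il18bp and Tgfbr1 stand higher in both MPP groups than in both batch 1 LT-HSC groups, while Itga5 has values above 0 in the knockout LT-HSC group alone.

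In batch 2 few introns passed the test, and they lay in 3 genes. Between the libraries labelled knockout and the Cre controls, 5 of 13206 events were called higher and 2 lower, where 0.0316% of all 25312 events were called, 0.0198% higher and 0.0119% lower. Between Myc allele and labelled knockout libraries 0 were called higher and 3 lower, all in Hspa8 (0.0158% of all events, 0.00395% higher and 0.0119% lower). Between Myc allele libraries and Cre controls 2 were higher and 2 lower (0.0198%, 0.0079% and 0.0119% of all events). Pairs of these comparisons share libraries. Summed over 6 T and NK cell markers, the Cre controls had 39.5 to 77.9 TPM and the labelled knockouts 16.4 to 36.4 TPM. Over 6 mast cell, basophil and eosinophil markers they had 4.85 to 8.14 and 0.479 to 3.92 TPM, and over 6 MPP markers 84.5 to 119.7 and 51.9 to 63.1 TPM. None of these overlapped, while the other marker sets did. The Myc allele libraries lay below the Cre controls in T and NK cell markers (17.3 to 33.1 TPM) and MPP markers (30.9 to 67.6 TPM). The same held for erythroid markers, at 21.1 to 37.5 against 48.1 to 85.3 TPM. The part of these markers in the changes was not tested. Without the 3 libraries with Rxra exon 8 (labelled knockout 5 and 6, Myc allele 2), only labelled knockout 4 was left in its group. The fit then assumes that this library varies like the other groups, and far more events were called against it. No count is given for these, since it would rest on 1 library. Between Myc allele libraries and Cre controls the count was then 5. For labelled knockout against Cre control, the count was 29 without labelled knockout 6. For Myc allele against labelled knockout, it was 5 without labelled knockout 4, 30 without labelled knockout 6, 214 without Myc allele 1 and 6 without Myc allele 2. For Myc allele against Cre control, it was 2, 1 and 2 without Cre control 4, 5 and 6, 236 without Myc allele 1 and 7 without Myc allele 2.

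Psd4, a guanine nucleotide exchange factor gene for Arf, had the largest difference between 2 groups among the named events. At the 5′ end of intron 6 (chr2:24395041-24396304, 1264 bases) it was at 0.00124, 0.0118 and 0 in the Cre controls and at 0.965, 0.99 and 1 in the libraries labelled knockout. In this listing the other 15 libraries lay between 0.756 and 1. The Cre controls thus stood apart from every other group, the floxed controls included. A second listing of the same junction pair had 0 in the Cre controls and 0.257 to 0.952 in the other libraries. There the floxed control LT-HSC were at 0.377, 0.314 and 0.393 and the labelled knockouts at 0.371, 0.538 and 0.389. In the first listing the difference from the Cre controls was 0.981 (SE 0.0634, limma adjusted p = 0.00161) for the labelled knockouts. For the Myc allele libraries it was 0.902 (SE 0.0634, limma adjusted p = 0.00771).

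Hspa8, a constitutive heat shock chaperone gene, differed in the labelled knockouts alone. Its intron 3 event (spliced junction chr9:40802892-40802973) had 0.883, 0.9 and 0.804 there, 0, 0.0586 and 0.0427 in the Myc allele libraries and 0.00666 to 0.0306 in the other 15. The difference was 0.853 (SE 0.0417, limma adjusted p = 0.000462) from the Cre controls and -0.829 (SE 0.0417, limma adjusted p = 0.00116) for Myc allele against labelled knockout. Arglu1, a gene of splicing and coactivation with a known retained intron, went the other way at intron 3 (chr8:8681468-8683747), with 0.825, 0.858 and 0.923 in the Cre controls and 0 in all 6 other batch 2 libraries (difference -0.868, SE 0.0395, limma adjusted p = 0.000462). In batch 1 Arglu1 took both extremes within groups: 0.882, 0 and 0 in floxed control LT-HSC, 0, 0 and 0.951 in knockout LT-HSC, 0, 0 and 0.833 in floxed control MPP and 0.903, 0 and 0 in knockout MPP.

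**Figure D5:**
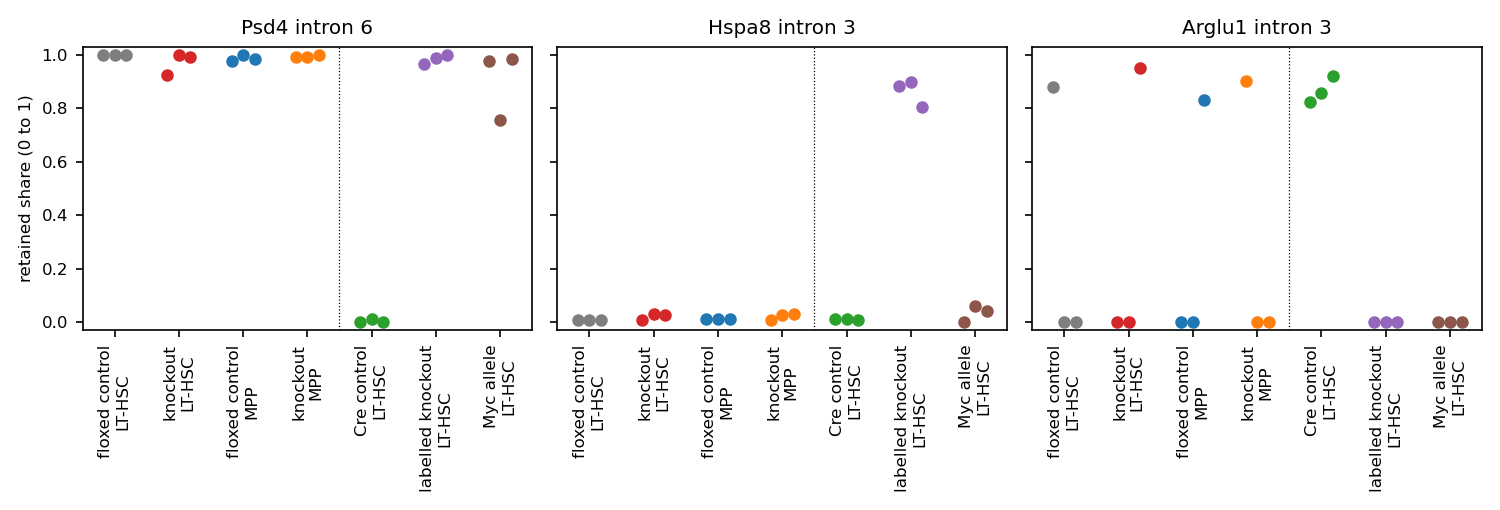
Retained share of Psd4 intron 6, Hspa8 intron 3 and Arglu1 intron 3 in each library, by group. Psd4 is near 0 in the Cre controls only (at most 0.0118), Hspa8 near 1 in the libraries labelled knockout only (0.804 to 0.9), and Arglu1 holds both 0 and values of 0.833 or more within each of the 4 batch 1 groups.

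The LT-HSC knockout comparison over both batches, with batch as a term, called no intron retention event. Limma called 0 of 18920 at an adjusted p under 0.05 (smallest 0.427), against 0.003% of all 33282 events, 0.003% higher and 0% lower. At an unadjusted p under 0.05 there were 1915 events, 1726 higher and 189 lower in the knockouts, where 8.44% of all events had such a p. On a logit scale limma called 1 event. It called 1 without Cre control 6, 3 without labelled knockout 6 and 39 without both labelled knockouts that have Rxra exon 8. The smallest p-values, not past the test, belonged to Dph5 intron 1, with 0.354, 0.304 and 0.346 against 0.0517, 0.0364 and 0 in batch 1 and 0.256, 0.255 and 0.087 against 0, 0 and 0.0455 in batch 2 (difference -0.245, SE 0.0368, limma adjusted p = 0.427), and to Stxbp4 (0.196) and Strn3 (0.372). Dph5 acts in the making of diphthamide on an elongation factor.

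The knockout effect itself was tested for a difference between the cell types and between the batches. Between MPP and LT-HSC in batch 1, 4 of 23151 events had a higher effect in MPP and 13 a lower one, in 14 genes, where 0.0458% of all 39312 events were called, 0.0102% higher and 0.0356% lower. After subtraction of library medians limma called 0, with 2072 at an unadjusted p under 0.05, and after subtraction of means 2 were higher and 1 lower. This count was 3 without floxed control LT-HSC 2 or without floxed control LT-HSC 3, 73 and 9 without knockout LT-HSC 1 and 3, 11 and 50 without floxed control MPP 2 and 3, and 5 without knockout MPP 3. The named events included rises in MPP (Cmpk2, Iffo1 and Slc4a7), rises in LT-HSC (Mknk1, Myo1f, Vps13d and Itga5) and falls in MPP (Arnt, Kdm5c, Ifih1 and Taf4b). Il16, a cytokine precursor gene, moved from 0.0192, 0.0182 and 0 to 0.133, 0.168 and 0.228 in LT-HSC and from 0.258, 0.24 and 0.167 to 0 in MPP (limma adjusted p = 0.0471 for the difference of effects).

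Between batches, 23 of 18920 events had a higher knockout effect in batch 1 and 11 a lower one, in 24 genes, where 0.108% of all 33282 events were called, 0.0721% higher and 0.0361% lower. After subtraction of library medians the split was 12 higher and 17 lower, and after subtraction of means 18 and 11. The count was 524, 80 and 60 without knockout LT-HSC 1, 2 and 3, 11, 10 and 13 without Cre control 4, 5 and 6, and 129 without labelled knockout 6. Without labelled knockouts 5 and 6 the batch 2 effect rests on 1 knockout library, so no count is given, though far more events were called. Odc1, the first enzyme of polyamine synthesis, had 0.308, 0.0282 and 0 against 0.436, 0.656 and 0.714 in batch 1 and 0.463, 0.591 and 0.489 against 0 in batch 2 at intron 1 (limma adjusted p = 0.0168 for the difference of effects). Robo4, a guidance receptor of stem cells and endothelium, had the reverse, 0.779, 0.632 and 0.827 against 0, 0.188 and 0 in batch 1 and 0.324, 0.357 and 0.368 against 0.774, 0.923 and 0.464 in batch 2 (limma adjusted p = 0.0253). Pea15a had 0.551, 0.714 and 0.625 in batch 1 knockout LT-HSC and Nab1, a transcriptional corepressor gene, 0.424, 0.462 and 0.458, and both were at 0 in the other 3 of the 4 LT-HSC groups compared. Rchy1, whose first 5′ splice site is printed above, had 0.424, 0.465 and 0.354 in its named event in batch 1 knockout LT-HSC (limma adjusted p = 0.0109). The 2 batch effects use different control genotypes, and 2 of the 3 labelled knockouts have Rxra exon 8, with no value for the other.

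The calls of the 2 batch 1 knockout comparisons were set beside the comparisons that share no library with them. Those of LT-HSC and MPP in batch 1 still share source names and 1 fit, so they are not independent of each other. Some introns count more than once, by their 2 ends or by pairs listed in both orders. The 41 events higher in knockout LT-HSC lie in 29 genes and the 34 lower in knockout MPP in 26. Of the 41 events called higher in knockout LT-HSC, 17 could be tested in batch 2, where 12 were higher, 2 lower and 3 equal, none at an unadjusted p under 0.05, with a median difference of 0.0694. Over all 12826 events tested in both, 57.9% were higher in batch 2 and the median was 0.0200. In MPP, the 41 events were higher in 12, lower in 12 and equal in 17, with 1 called higher and a median of 0, beside 42.0% higher and a median of -0.0102 over all 23151 events. Of the 34 events called lower in knockout MPP, 16 were lower in knockout LT-HSC, 4 higher and 14 equal, with an unadjusted p under 0.05 in 10 of the 16 and in 3 of the 4. Over all 23151 events, 6892 were lower in knockout LT-HSC, 472 of them at such a p.

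Across the gene lists the test called few events in the batch 1 knockout and cell type comparisons. The lysosome and autophagy list had 2 of 188 events called lower in knockout MPP, both in Ulk1, where 34 of all 23151 were. The cell cycle list had Cdk1 as 1 of 101 called higher in floxed control MPP, where 96 of all 23151 were. The lists of SR proteins, hnRNPs, core spliceosome, detained introns, granulocyte intron retention, nonsense-mediated decay, nuclear receptors, the Myc network, stem cell genes, ribosomal proteins, oxidative phosphorylation, interferon and translation had 0 called by limma. At an unadjusted p under 0.05 the SR protein list had 28 of 171 events higher and 3 lower in the knockout LT-HSC, the detained intron list 37 of 182 higher and 1 lower, and the stem cell list 12 of 50 higher and 0 lower, beside 2752 higher and 472 lower of all 23151. In LT-HSC the median knockout difference was 0.0331 for 171 SR protein events, 0.0493 for 120 hnRNP events, 0.0565 for 182 detained intron events, 0.0646 for 66 nuclear receptor events and 0.0814 for 50 stem cell events, beside 0.0390 over all 23151 events. The lysosome and autophagy list had -0.0177, with 41.0% of its events higher against 64.3% of all. In MPP its median was -0.0696 with 23.4% higher, against -0.0102 and 42.0% over all events, 47 of its 188 events were lower at an unadjusted p under 0.05 against 1823 of 23151, and between floxed control MPP and LT-HSC it was 0.0685 against 0.0417.

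The RNA level of the genes whose introns were called was examined in the deposited TPM values, tested with limma on log2(TPM + 1) over 14839 genes. In LT-HSC 20 of 32 such genes were higher in the knockout and 1 lower, against 45.2% of all genes in either direction. The median log2 change of all genes in that comparison was 0.52, and after median-of-ratios scaling, which moves it to -0.03, 1 was higher and 1 lower, against 4.68% of all genes. In MPP 0 of 34 were higher and 2 lower (0.323% of all genes): Ahnak with a log2 change of -1.26 (limma adjusted p = 0.00488) and Nfkb2 with -0.83 (limma adjusted p = 0.047), in both of which retention fell too. Under the scaling, a pseudocount of 0.1 or no filter on low genes, 1 of the 34 was lower. Between floxed control MPP and LT-HSC 35 of 72 were higher and 4 lower, against 21.2% of all genes, and 24 and 7 after the scaling. Between the knockouts 3 of 36 were higher and 13 lower, against 19.5%, and 4 and 11 after it. Med12l and its intron were both lower in floxed control MPP (log2 change -1.71, limma adjusted p = 7.13e-05), whereas Jam3 (-1.22, limma adjusted p = 0.000198) and Il18bp (-1.23, limma adjusted p = 0.000105) had less RNA and a higher retained share in knockout MPP. In batch 2 none of the 3 genes with called introns passed the test for its level, and Psd4 had a log2 change of -1.22 (limma adjusted p = 0.263).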

How the data were processed

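Long-term haematopoietic stem cells and multipotent progenitors were profiled by RNA-seq in 21 libraries, from 5 ng of total RNA amplified before library making, and read as pairs, per the labels' protocols. The submitters' processing notes name STAR 2.6, kallisto and build mm10; the caller of the splicing events is not given in the sources used here. The authors deposited PSI as a fraction per event and library, and TPM per gene. The read counts behind each PSI are unknown, so no counting error can be given. Intron coordinates and intron numbers are those of the deposited table.

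Events were turned to the retained share by the junction label that names an intron, and groups were taken from the labels. PSI differences were fitted with limma (version 3.58.1, under R 4.3.3; lmFit, contrasts, eBayes), over all event types with complete values and some variance, with Benjamini-Hochberg adjustment over all of them. Separate fits held the 12 batch 1 libraries, the 9 batch 2 libraries and the LT-HSC of both batches with batch as a term. Gene levels were tested with limma on log2(TPM + 1), where fold changes of low genes are understated, for genes with at least 1 TPM in 3 libraries. The fit of PSI differences was tested on simulated data. Tables and plots were made with Python 3.11.15, pandas 2.3.3 and matplotlib 3.10.9.

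Alternatives were a logit scale, events with at least 2 values in every group, a difference of 0.2, a gene mean of 10 TPM, events that share a splice site, subtraction of library medians or means, a replicate block, and leaving out each library. Named events were, for each of 10 comparisons and among called events whose 2 groups do not overlap, 1 event per gene with the 10 largest rises and the 10 largest falls. With under 3 called in a direction all were named, and with none called the 3 of smallest p. Also named were the 10 genes of highest median level and, from the gene lists, up to 3 genes where a member was called. Members, gene lists and comparisons were chosen with earlier results of these data known. A few events that the rule selects are not reported here.

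LT-HSC and MPP of batch 1 carry the same source names in their descriptions, which pairs them. The deviations of same-source libraries from their group means correlated at -0.00594 to 0.0265 in the floxed controls and 0.0446 to 0.208 in the knockouts. Replicates of a group correlated at 0.593 to 0.686 in batch 1, 0.739 to 0.782 in the Cre controls, 0.371 to 0.522 in the labelled knockouts and 0.237 to 0.427 in the Myc allele libraries.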

Additional observations from a re-analysis of the deposited data

Results flagged for a closer look

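Intron retention events appear here because limma's interaction test, at an adjusted p under 0.05, found a different knockout effect in 2 cell types or in 2 batches. Each value is the difference of the 2 effects in retained share. Groups of 3 libraries were not examined for single outlying libraries.

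Between cell types (effect in MPP minus effect in LT-HSC), the difference was 0.442 for Cmpk2, 0.336 for Iffo1 and 0.335 for Slc4a7, whose introns were retained in knockout MPP and at or near 0 in the other batch 1 groups. It was -0.665 for Mknk1, -0.476 for Myo1f, -0.362 for Vps13d and -0.342 for Itga5, which rose from 0 in the knockout LT-HSC. Arnt with -0.649, Kdm5c with -0.643, Tmbim6 with -0.514 and Il16 with -0.386 had higher means in the knockout than in the floxed LT-HSC and lower ones in the knockout than in the floxed MPP. Ifih1 with -0.383 and Taf4b, a TFIID subunit gene, with -0.317 were at 0 in every batch 1 library except the floxed control MPP. Adjusted p-values of limma ran from 0.00294 for Mknk1 to 0.0477 for Iffo1.

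Between batches (effect in batch 1 minus effect in batch 2), the difference was 1.00 for Odc1 and 0.742 for Cpsf3l, the catalytic subunit gene of Integrator. It was 0.663 for Dip2b, 0.630 for Pea15a, 0.448 for Nab1, 0.441 for Impdh1, 0.414 for Gcc2, 0.414 for Rchy1, 0.401 for Pkd2 and 0.372 for Atp10d, all retained in the 3 batch 1 knockout LT-HSC and at 0 in the floxed controls. Negative differences were -1.05 for Robo4, -1.01 for Psd4, -0.861 for Hspa8, -0.806 for Taok2, -0.493 for Wdfy1, -0.467 for Nfkb2 and -0.450 for Cdk11b. Taok2, a kinase gene, had 0.509, 0.593 and 0.726 against 0 in batch 1 and 0.75, 0.714 and 0.576 against 1, 0.9 and 0.731 in batch 2, and Wdfy1, an endosomal protein gene, 0.595, 0.475 and 0.41 against 0 in batch 1 alone. Batch and control genotype cannot be told apart in these differences, and 2 of the 3 labelled knockouts have Rxra exon 8, with no value for the other.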

How the results depend on the processing

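No result changed direction past the test under any alternative run, and counts of called intron retention events moved often. On a logit scale the counts were 150 for knockout against floxed control in LT-HSC, 80 in MPP, 164 and 124 for MPP against LT-HSC in floxed controls and knockouts, 0 for Myc allele against labelled knockout, 1 for both batches, 158 for the effect between cell types and 269 between batches. With at least 2 values in every group they were 87 for knockout MPP against LT-HSC, 26 between cell types and 59 between batches, and with genes of at least 10 TPM 29 for knockout MPP. Subtracting library medians gave 13, 25 and 31 for the LT-HSC knockout, MPP knockout and floxed cell type comparisons and 0 between cell types; subtracting means, added after seeing the data, gave 12, 26, 46 and 3. Events that share a splice site gave 3 and 0 for labelled knockout against Cre control and Myc allele against labelled knockout.

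Further settings were added after seeing the data, each leaving 1 labelled knockout library. Without the libraries that have Rxra exon 8 the counts were 1551 for labelled knockout against Cre control, 1484 for Myc allele against labelled knockout, 39 over both batches and 1077 between batches. Without the libraries with most missing values (labelled knockout 4 and 5, Myc allele 2 and 3) they were 753, 1264, 699 for Myc allele against Cre control, and 9 over both batches; here 1 Myc allele library is left too, so the 1264 compares 1 library with 1, each assumed to vary like the other groups. The cause was not tested.

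With the replicate number or source as a block, limma called 6 for the LT-HSC knockout, 9 for the MPP knockout, 1 and 0 for the cell type comparisons, 0 for labelled knockout against Cre control, 0 over both batches, 0 for the effect between cell types and 4 between batches. Genotypes share only a number, with correlations of -0.00742 to 0.0115 in batch 1 LT-HSC, 0.00361 to 0.0197 in MPP and -0.0485 to -0.0128 in batch 2. No paired analysis was possible for the Myc allele comparisons because their replicate numbers do not match the other groups. Of the named results with a block fit, 11 stayed on their side of the threshold and 93 lost the call.

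Leaving out each library in turn, counts ran from 9 to 312 for the LT-HSC knockout, 23 to 144 for MPP, 40 to 216 and 47 to 177 for the cell types, 5 to 29, 3 to 214 and 1 to 236 in batch 2, 0 to 3 over both batches, 3 to 73 between cell types and 10 to 524 between batches. Among the named events, 300 such results lost the call, 539 stayed on their side of the threshold and 1 gained the call. Depth limits every value, since the reads behind a share are unknown and a group at 0 in 3 libraries has no spread of its own.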

Other observations

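Some intron retention events held 1 group outside all other 18 libraries; those given here were chosen after their values were seen and have no test. In the knockout LT-HSC, Ap3d1 intron 30, in the gene of a subunit of an adaptor complex of lysosomal sorting, had 0.323, 0.268 and 0.23 and was at 0 elsewhere. Pcgf2, a Polycomb gene, had 0.149, 0.231 and 0.156 at intron 13 and 0 elsewhere. In the floxed control MPP, Hif1a intron 8, in the gene of the hypoxia-inducible factor subunit, had 0.186, 0.239 and 0.182, Kdm2b intron 19, in a histone demethylase gene, 0.254, 0.212 and 0.175, and Hsf1 intron 2, in the heat shock factor gene, 0.111, 0.175 and 0.145, each at 0 in the other 18 libraries. Ulk1 had such an event at a further intron, number 27, with 0.545, 0.644 and 0.47, and up to 0.309 in batch 1 LT-HSC.

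In batch 2, Prpf19 intron 10, in a gene of the spliceosome, had 0.253, 0.973 and 0.661 in the Myc allele libraries and at most 0.132 elsewhere. Ppp1r14b intron 2, in the gene of a phosphatase inhibitor, had 0.368, 0.884 and 0.95 there and at most 0.179 elsewhere. Cdk6 intron 1, in the gene of a kinase of cell cycle entry, had 0.333, 0 and 0 in the libraries labelled knockout and 0.612 to 0.84 in the others. Cdk11b intron 1, in the gene of a kinase that acts in splicing, had 0.317, 0.25 and 0.271 in the Cre controls and 0.472 to 0.822 in the others.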
